A study of Mus musculus with 1 sample.

Results

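The genes described here encode 8 enzymes and enzyme partners that make leukotrienes, prostanoids and histamine, namely Alox5, Alox5ap, Ltc4s, Alox15, Ptgs1, Hpgds, Tbxas1 and Hdc. They were taken by gene symbol from the deposited matrix of 32285 genes, and all 8 were found there, each under 1 gene identifier. Their levels were compared between blood progenitors that carried markers of basophils and mast cells, eosinophils, megakaryocytes, monocytes or neutrophils. Alox5 and Alox15 were concentrated in the basophil-mast cells, Ptgs1 and Tbxas1 were highest in the megakaryocyte cells among these 5 lineages, Hdc was shared by the basophil-mast and eosinophil cells, and Alox5ap was found in all 5.

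Leukotrienes and prostanoids are lipid mediators made from arachidonic acid, a fatty acid that phospholipase A2 frees from membranes. In the leukotriene branch, 5-lipoxygenase works with a membrane partner that presents arachidonic acid to it, and the product is turned into leukotriene B4 or, by conjugation with glutathione, into leukotriene C4, whereas in the prostanoid branch a cyclooxygenase makes the common precursor from which prostaglandin D2 or thromboxane A2 is formed. Histamine is made from the amino acid histidine by a single decarboxylase and is stored in granules. Basophils and mast cells are known for histamine and leukotriene release, platelets for thromboxane, and neutrophils for leukotriene B4.

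They were measured by single-cell RNA-seq in 1 library of lineage-negative, Kit-positive bone marrow cells, a sorted fraction that holds blood stem cells and progenitors and from which mature basophils, platelets and granulocytes are largely removed. The mice were of the C57BL/6 strain and carried Brd9fl/fl alleles without a Cre, so that Brd9 was intact, and they had received pIpC, an interferon inducer, at 20 mg/kg in 3 doses, 8 weeks before the cells were taken. The labels describe a CD45.2(+) donor and a CD45.1(+) CD45.2(-) recipient, with pIpC given 4 weeks after the transplant, while the series text describes primary mice injected 4 weeks after birth, and which of these applies was not settled here. As only 1 library was measured, no replicate or test between animals was possible, and every interval given below is an exact 95% interval that covers counting error only.

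The unit of the counts is the unique molecular identifier (UMI), a tag that lets each captured transcript be counted a single time. The study's cell filter kept 7645 of 8817 barcodes, with 1592 to 49991 UMIs per cell. Each cell was thinned at random to 5000 UMIs and was placed in a gate when at least 3 markers of 1 list were detected and no other list reached 3. The basophil-mast gate held 389 cells, the eosinophil gate 13, the megakaryocyte gate 465, the monocyte gate 1251 and the neutrophil gate 153, while 227 cells passed several lists and 3121 passed none. A level is the summed UMIs of a gene in a gate per 1000000 UMIs of that gate (CPM), and a fold is the ratio of a gate to the other 4 of these 5 gates pooled.

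The gates were described by their defining markers, which is no independent check because the same markers placed the cells. In the basophil-mast gate 8 of 9 markers had UMIs and the tryptase Tpsb2 was at 0. The eosinophil gate lacked the receptor Ccr3, and the neutrophil gate lacked Ltf, which encodes the granule protein lactoferrin, whereas all 9 megakaryocyte and all 8 monocyte markers had UMIs in their own gates. All 8 monocyte markers also had UMIs in the basophil-mast and megakaryocyte gates, so a marker having UMIs does not set a gate apart. The neutrophil list was carried by S100a8, a calcium-binding protein of neutrophils, with 10171 of the 11721 marker UMIs of that gate, and the neutrophil protease gene Mmp8 was lower there (0.331 CPM) than in the monocyte gate (7.73 CPM), as was Cd177 (1.99 against 2.83 CPM). The basophil-mast markers summed to 30989 CPM in their own gate, 1048 CPM in the eosinophil gate and 30.9 to 40.4 CPM in the other 3. Of the 35 cells that passed the eosinophil list, 17 also passed the basophil-mast list and were left out of both, so the eosinophil values rest on few cells and 178491 UMIs in all. In that gate a count of 0 allows a level of up to 16.8 CPM. With another random seed for the thinning the eosinophil gate held 21 cells.

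The basophil-mast gate was also described by its proteases. UMIs of the basophil proteases Mcpt8 or Prss34 without those of Cma1, a mast cell protease, were found in 355 of its 389 cells, 2 cells had Cma1 alone, 7 had both kinds and 25 had neither. UMIs of Mcpt8 or Prss34 were also common in other gates, with at least 1 in 35.2% of erythroid cells, but at 5000 UMIs per cell 309 basophil-mast cells (79.4%) and 0 erythroid cells had over 3 of them. Cma1 had UMIs in none of the cells of the other 4 gates or of the erythroid gate. Cpa3, the carboxypeptidase of mast cells, was detected in 386 of the 389 cells at this depth, and Tpsb2 was at 0 in every gate, so the proteases do not settle how the gate divides between basophil and mast cell progenitors.

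A gene was called higher in a gate when its fold was at least 2 and the gate held over 3 UMIs. It was called lower when the gate was at least 2-fold below the other 4 pooled. In both cases a count under 3 UMIs on the lower side was raised to 3, so a gene with few or 0 UMIs could be called lower. Over the 11564 genes with 50 or more UMIs in the 5 gates, 7.45% were called higher and 9.86% lower in the basophil-mast gate, 5.10% and 3.65% in the eosinophil gate, 16.6% and 10.1% in the megakaryocyte gate, 6.17% and 14.6% in the monocyte gate, and 2.36% and 25.1% in the neutrophil gate. All 8 enzyme genes were among the genes measured at this depth. In the basophil-mast gate 3 of the 8 were called higher (Alox5, Alox15 and Hdc) and 1 lower (Ptgs1). In the megakaryocyte gate 4 were called higher (Ltc4s, Ptgs1, Hpgds and Tbxas1) and the other 4 lower. The eosinophil gate had 1 called higher (Hdc) and 0 lower, the monocyte gate 0 higher and 7 lower, and the neutrophil gate 0 higher and 4 lower. The lower calls of Alox15 rested on 0 UMIs in the neutrophil, 1 in the megakaryocyte and 3 in the monocyte gate. That of Ltc4s in the neutrophil gate rested on 1 UMI. The median fold of the 8 genes was 1.57, 2.37, 0.103 and 0.533 in the basophil-mast, megakaryocyte, monocyte and neutrophil gates, where that of all 11564 genes was 0.969, 1.19, 0.905 and 0.698. No median is given for the eosinophil gate, in which 4 of the 8 genes had 0 UMIs. The 8 genes were named for their known roles with earlier results of these data in view, so these counts describe them and carry no test.

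**Figure D1:**
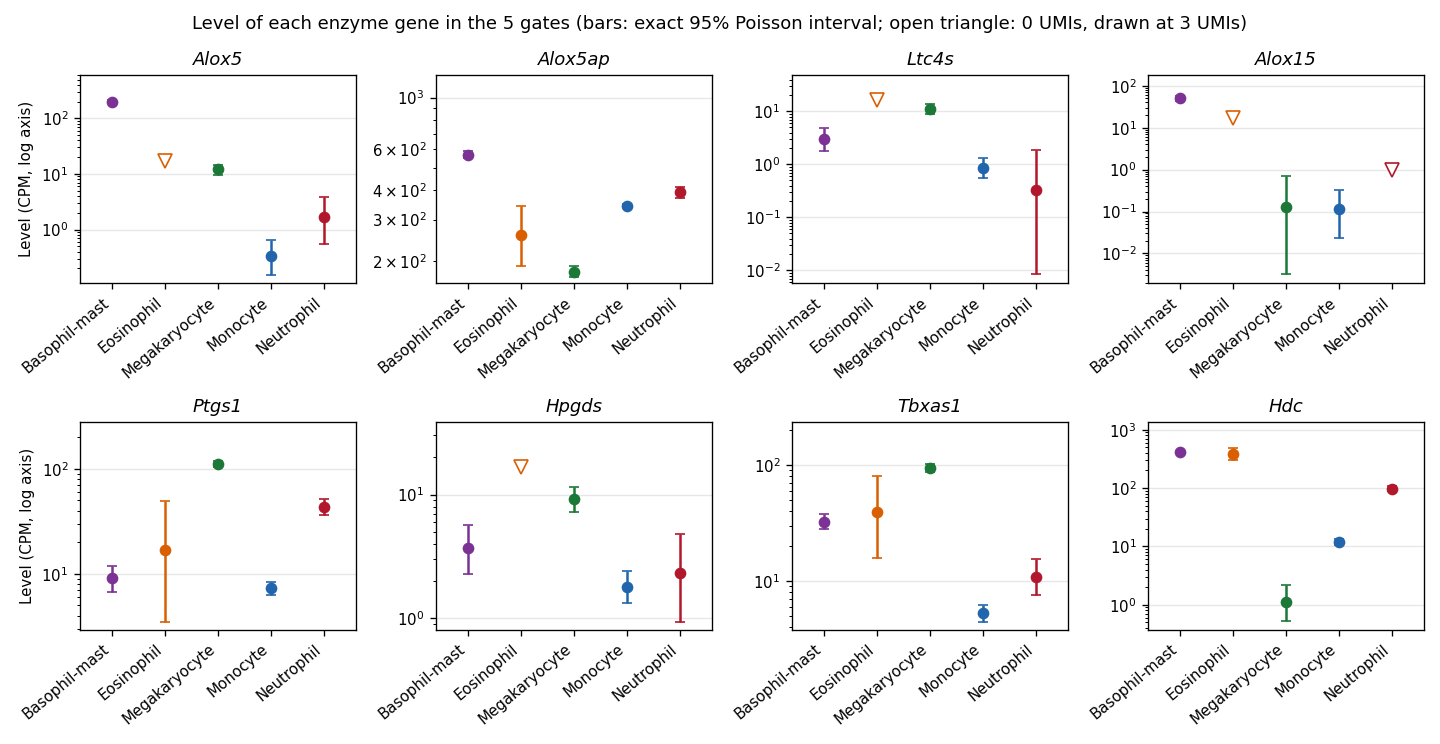
Level of each of the 8 genes in the 5 gates, in CPM on a log axis that differs between panels. Points are levels, bars are exact 95% Poisson intervals and open triangles mark gates with 0 UMIs, drawn at the level that 3 UMIs would give. Alox5 and Alox15 stand highest in the basophil-mast gate, Ptgs1 and Tbxas1 in the megakaryocyte gate, and Hdc is at 414 and 387 CPM in the basophil-mast and eosinophil gates.

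Alox5 encodes 5-lipoxygenase, the enzyme that starts leukotriene synthesis, and lies on the minus strand of GRCm38 chromosome 6, bases 116410077 to 116461178. In the basophil-mast gate its level was 199.8 CPM (188 to 212) from 1127 UMIs. The megakaryocyte gate was next at 12.1 CPM (9.77 to 14.7), then the neutrophil gate at 1.66 CPM (0.538 to 3.87, 5 UMIs) and the monocyte gate at 0.339 CPM (0.155 to 0.644, 9 UMIs), and the eosinophil gate had 0 UMIs. The basophil-mast level was 68.4-fold that of the other 4 gates pooled (56.2 to 84.0) and 16.6-fold that of the megakaryocyte gate alone (13.4 to 20.6). The interval of each step from the basophil-mast gate down to the monocyte gate lay above 1, so the order of these 4 was resolved by counting, and only the place of the eosinophil gate was not. Of all Alox5 UMIs in the 5 gates, 91.1% came from the basophil-mast cells.

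The neutrophil and monocyte gates are the lineages whose mature cells are best known for 5-lipoxygenase, and both were low here. In the neutrophil gate Alox5 was 18.5-fold lower than in the other 4 pooled (7.89 to 56.9), and in the monocyte gate it was 215-fold lower (113 to 472). The monocyte level was also below that of the erythroid gate, at a ratio of 0.269 (0.116 to 0.553). Its counts in the monocyte gate thus did not rise above the erythroid level, and the source of the UMIs in either gate was not tested. In the megakaryocyte gate the level was 9.55-fold that of the erythroid gate (6.70 to 13.8).

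Alox5ap encodes FLAP, the membrane partner that presents arachidonic acid to 5-lipoxygenase, on the plus strand of chromosome 5, bases 149264767 to 149288153. Unlike Alox5 it was present in every gate, at 568 CPM (548 to 588) in the basophil-mast, 392 CPM (370.2 to 415) in the neutrophil, 342 CPM (335 to 349) in the monocyte, 258 CPM (189 to 344) in the eosinophil and 179.5 CPM (170.3 to 189) in the megakaryocyte gate. From the highest to the lowest gate the level differed 3.16-fold (2.97 to 3.37). The monocyte and eosinophil gates were not resolved from each other, at a ratio of 1.33 (0.994 to 1.81). Beyond these lineages the dendritic gate, at 551 CPM (497 to 609), was not resolved from the basophil-mast gate, whose level was 1.03-fold higher (0.927 to 1.15), while the erythroid gate had 18.7 CPM (17.4 to 20.2). Thus the neutrophil and monocyte gates had FLAP transcripts with almost no 5-lipoxygenase transcripts beside them.

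Alox15 encodes the 12/15-lipoxygenase, which oxygenates arachidonic acid at other carbons, and lies on the minus strand of chromosome 11, bases 70344152 to 70352031. Of its UMIs in the 5 gates, 98.6% came from the basophil-mast gate, at 49.8 CPM (44.2 to 56.0) from 281 UMIs. The megakaryocyte gate had 1 UMI, the monocyte gate 3, and the eosinophil and neutrophil gates 0 each, and the neutrophil count allows up to 0.994 CPM. The basophil-mast level was 469-fold that of the other 4 pooled (181 to 1734), an interval wide because those 4 held only 4 UMIs. The 3121 cells that passed no list had 0 Alox15 UMIs among 58893961, which allows up to 0.0509 CPM. Of the UMIs in the gate, 19.2% came from the 10 cells with most, and no cell held more than 8.

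Hdc encodes histidine decarboxylase, which makes histamine, on the minus strand of chromosome 2, bases 126593667 to 126619299. Its level was 414 CPM (397 to 431) in the basophil-mast gate and 387 CPM (301 to 489) in the eosinophil gate, and these were not resolved from each other, at a ratio of 1.07 (0.842 to 1.38). The neutrophil gate followed at 98.1 CPM (87.2 to 109.9), then the monocyte gate at 11.9 CPM (10.6 to 13.3) and the megakaryocyte gate at 1.13 CPM (0.517 to 2.15, 9 UMIs), with every one of these steps above 1 in its interval. Hdc was 22.6-fold higher in the basophil-mast gate than in the other 4 pooled (20.8 to 24.7) and 5.65-fold higher in the eosinophil gate (4.38 to 7.17). When the other 4 gates were averaged with equal weight in place of pooling their UMIs, the basophil-mast fold was 3.32 and the eosinophil fold 2.95, since each gate then counted as much as the others. The Hdc level of the eosinophil gate stood beside basophil-mast markers at 1048 CPM, against 30989 CPM in the basophil-mast gate, and 0 UMIs of Alox5 and Alox15. The neutrophil level was 34.3-fold that of the erythroid gate (27.5 to 43.0), where Hdc stood at 2.86 CPM (2.35 to 3.45).

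Ltc4s encodes leukotriene C4 synthase, which conjugates leukotriene A4 with glutathione, on the minus strand of chromosome 11, bases 50236461 to 50238616. It did not follow Alox5. Of the 4 gates with UMIs the megakaryocyte gate was highest at 11.1 CPM (8.87 to 13.6, 88 UMIs), followed by the basophil-mast gate at 3.01 CPM (1.76 to 4.82, 17 UMIs), while the monocyte gate at 0.867 CPM (0.550 to 1.30) was not resolved from the neutrophil gate, which had 1 UMI. The eosinophil gate had 0, which allows a level above the megakaryocyte one. The megakaryocyte level was 9.54-fold that of the other 4 pooled (6.51 to 14.2) and 3.67-fold that of the basophil-mast gate (2.17 to 6.58). In the monocyte gate the ratio to the erythroid gate was 0.635 (0.371 to 1.05), so the monocyte counts did not rise above the erythroid level.

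Ptgs1 encodes cyclooxygenase-1 and lies on the plus strand of chromosome 2, bases 36230426 to 36252272. It reached 110.4 CPM (103 to 118) in the megakaryocyte gate and 43.1 CPM (36.0 to 51.1) in the neutrophil gate. The eosinophil gate had 3 UMIs, or 16.8 CPM (3.47 to 49.1), the basophil-mast gate 9.04 CPM (6.73 to 11.9) and the monocyte gate 7.31 CPM (6.32 to 8.42). The megakaryocyte level was 10.3-fold that of the other 4 pooled (9.15 to 11.7), or 5.79-fold with equal weights, and 2.56-fold that of the neutrophil gate (2.13 to 3.11), which in turn was 5.89-fold above the monocyte gate (4.68 to 7.39). Below the megakaryocyte gate the eosinophil gate was not resolved from the neutrophil gate (2.56, 0.858 to 12.6) or the basophil-mast gate (1.86, 0.371 to 5.75), nor the basophil-mast from the monocyte gate (1.24, 0.890 to 1.69). The basophil-mast gate thus had the highest Alox5 level and one of the lowest Ptgs1 levels of the 5, at 3.54-fold below the other 4 pooled (2.67 to 4.78).

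Tbxas1 encodes thromboxane A synthase, which acts on the cyclooxygenase product, on the plus strand of chromosome 6, bases 38875404 to 39084585. It stood at 94.2 CPM (87.6 to 101) in the megakaryocyte gate, 39.2 CPM (15.8 to 80.8, 7 UMIs) in the eosinophil, 32.6 CPM (28.1 to 37.7) in the basophil-mast, 10.9 CPM (7.53 to 15.4) in the neutrophil and 5.28 CPM (4.44 to 6.23) in the monocyte gate. The megakaryocyte gate was 9.15-fold above the other 4 pooled (8.07 to 10.4), and 4.28-fold with the other 4 at equal weight. All steps down were resolved except that from the eosinophil to the basophil-mast gate, at a ratio of 1.20 (0.477 to 2.53). The neutrophil gate, with 43.1 CPM of Ptgs1, thus had a Tbxas1 level 2.45-fold below the other 4 pooled (1.74 to 3.58).

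Hpgds encodes the haematopoietic prostaglandin D synthase, on the minus strand of chromosome 6, bases 65117293 to 65144908, and was sparse in all 5 gates. The megakaryocyte gate had 9.17 CPM (7.19 to 11.5, 73 UMIs), the basophil-mast gate 3.72 CPM (2.30 to 5.69, 21 UMIs), the neutrophil gate 2.32 CPM (0.932 to 4.78, 7 UMIs), the monocyte gate 1.81 CPM (1.33 to 2.40, 48 UMIs) and the eosinophil gate 0. The megakaryocyte level was 4.27-fold that of the other 4 pooled (3.05 to 5.96), and below it no neighbours in the order were resolved, while the 0 of the eosinophil gate allows a level above it. The monocyte level was not resolved from that of the erythroid gate, at a ratio of 1.23 (0.821 to 1.84). Prostaglandin D2 is a known product of mast cells, and the 2 cells with Cma1 alone held 3 Hpgds UMIs and the 7 cells with both kinds of protease held 4, against 13 UMIs in the 355 cells with Mcpt8 or Prss34 alone. As levels these were 89.5 CPM (18.5 to 262), 45.9 CPM (12.5 to 117) and 2.54 CPM (1.35 to 4.35). The 7 UMIs of the cells with Cma1 came from 3 cells. The intervals do not cover the spread between cells, so no difference between these kinds of cells can be drawn.

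The 4 genes called higher in the megakaryocyte gate shared a short sequence near their starts, which their promoters are shown for. The windows are RefSeq sequence from 250 bases before to 50 bases after a gene start, and 6 of the 8 genes had one. Capitals mark matches to the letters searched, on either strand: the PU.1 or ETS motif GAGGAAG, the RUNX motif TGTGGT, the C/EBP motif TTGCNNAA and the motif of the GATA factors, AGATAA.
Ptgs1 promoter, GRCm38.p6 chr2:36230176-36230475, plus strand: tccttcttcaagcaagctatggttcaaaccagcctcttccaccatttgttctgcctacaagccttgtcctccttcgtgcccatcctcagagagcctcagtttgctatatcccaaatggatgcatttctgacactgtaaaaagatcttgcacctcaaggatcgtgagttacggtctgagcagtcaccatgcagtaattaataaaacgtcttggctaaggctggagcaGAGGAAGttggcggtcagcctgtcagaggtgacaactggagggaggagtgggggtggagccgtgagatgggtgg
Tbxas1 promoter, GRCm38.p6 chr6:38918736-38919035, plus strand: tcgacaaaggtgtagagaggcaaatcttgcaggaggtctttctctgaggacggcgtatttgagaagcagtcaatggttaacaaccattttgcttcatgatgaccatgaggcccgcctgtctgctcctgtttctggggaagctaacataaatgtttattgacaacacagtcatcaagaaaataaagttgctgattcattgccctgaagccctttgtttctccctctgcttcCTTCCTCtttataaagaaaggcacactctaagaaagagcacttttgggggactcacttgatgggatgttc
Ltc4s promoter, GRCm38.p6 chr11:50238483-50238782, minus strand: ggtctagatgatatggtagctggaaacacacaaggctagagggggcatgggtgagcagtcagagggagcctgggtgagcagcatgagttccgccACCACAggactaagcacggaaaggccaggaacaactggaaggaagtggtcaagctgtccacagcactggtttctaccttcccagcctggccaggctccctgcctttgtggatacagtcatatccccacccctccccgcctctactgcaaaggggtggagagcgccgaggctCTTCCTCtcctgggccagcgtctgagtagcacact
Hpgds promoter, GRCm38.p6 chr6:65144681-65144980, minus strand: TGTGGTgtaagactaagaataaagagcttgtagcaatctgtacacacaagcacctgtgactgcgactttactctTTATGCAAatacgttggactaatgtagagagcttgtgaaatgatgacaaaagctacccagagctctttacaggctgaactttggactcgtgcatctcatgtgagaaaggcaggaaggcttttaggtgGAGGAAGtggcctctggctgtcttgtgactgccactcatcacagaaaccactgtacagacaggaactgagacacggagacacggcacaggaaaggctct

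GAGGAAG was present in all 4 of these windows, 24 bases before the start in Ptgs1, 20 before it in Tbxas1, 49 before it in Hpgds and 15 after it in Ltc4s, counted to the first base of the match. It was present in 13.6% of the 32851 promoter windows of the same length. In Tbxas1 and Ltc4s the letters run on the opposite strand and so read CTTCCTC. The letters TGTGGT were found in Ltc4s and Hpgds (16.8% of all windows) and TTGCNNAA in Hpgds (10.8%), no 2 matches overlapped, and AGATAA was in none of the 6 (11.2% of all windows). The windows of Alox5 and Hdc, both called higher in the basophil-mast gate, held none of these letters. The Tbxas1, Ltc4s, Hpgds and Hdc windows are at RefSeq starts that lie inside the GENCODE genes, so the distances are to the RefSeq starts. A match is a description of the letters, with binding not measured here.

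**Figure D2:**
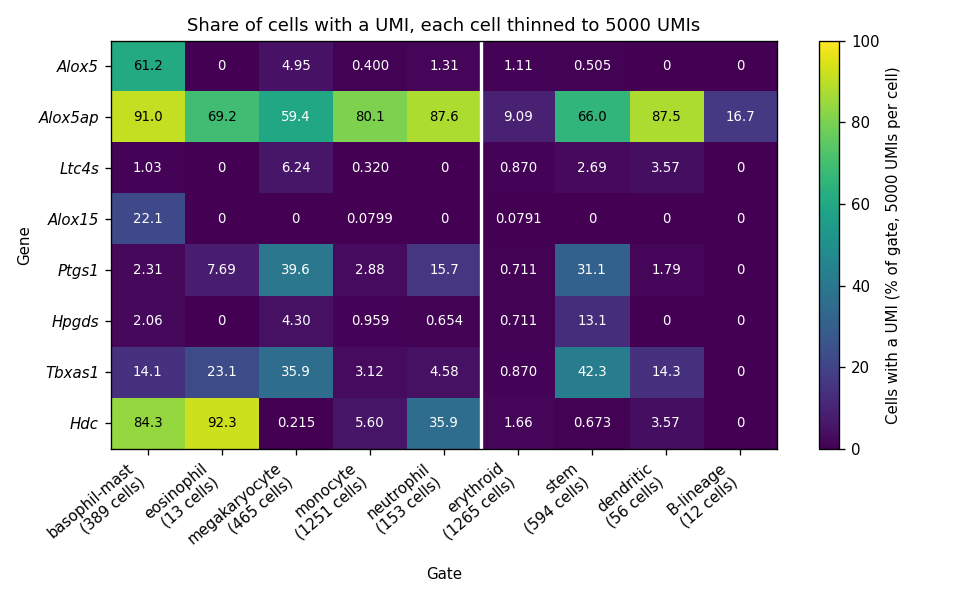
Percent of the cells of each gate with a UMI of each gene after thinning every cell to 5000 UMIs, with the 5 compared gates left of the white line and 4 further gates right of it. Alox5 was detected in 61.2% of basophil-mast cells and in at most 4.95% of the cells of any other gate, while Alox5ap was detected in 59.4% to 91.0% of the cells of the 5 gates.

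Shares of cells were compared at 5000 UMIs per cell, because the median depth differed, from 12765 UMIs in the basophil-mast gate to 20588 in the monocyte gate. Alox5 was detected in 61.2% of basophil-mast cells (56.1 to 66.1) and in 86.4% without thinning. In the erythroid gate, which had a median of 32190 UMIs, the shares were 1.11% (0.606 to 1.85) and 3.32%. The Alox5 share of 4.95% (3.16 to 7.33) in the megakaryocyte gate was above the thinned erythroid share, and those of 0.400% (0.130 to 0.930) in the monocyte gate and 1.31% (0.159 to 4.64) in the neutrophil gate were not. Alox15 was detected in 22.1% of basophil-mast cells (18.1 to 26.6), or 36.8% unthinned, and in 0.0791% of erythroid cells, or 0.237% unthinned. Thus most cells of the basophil-mast gate gave no Alox15 UMI at this depth, although 281 of the 317 UMIs of the gene in the library came from it.

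Hdc was detected in 84.3% of basophil-mast cells (80.3 to 87.8), in 12 of the 13 eosinophil cells and in 35.9% of neutrophil cells (28.4 to 44.1), or, unthinned, in 96.1%, all 13 cells and 78.4%. The monocyte share was 5.60% (4.39 to 7.02), or 17.1% unthinned, and the megakaryocyte share 0.215% (0.00544 to 1.19), or 1.94% unthinned, against 1.66% (1.03 to 2.53), or 5.69% unthinned, in the erythroid gate. Hdc transcripts in the megakaryocyte gate were thus no more frequent than in red cell precursors. Ptgs1 was detected in 39.6% of megakaryocyte cells (35.1 to 44.2) and 15.7% of neutrophil cells (10.3 to 22.4), or 71.4% and 51.6% unthinned. Tbxas1 was detected in 35.9% of megakaryocyte cells (31.5 to 40.5) and 14.1% of basophil-mast cells (10.8 to 18.0), or 68.6% and 32.6% unthinned. Both genes had a share under 1% in the thinned erythroid cells, at 0.711% for Ptgs1 and 0.870% for Tbxas1, and at 3.32% and 3.48% unthinned.

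**Figure D3:**
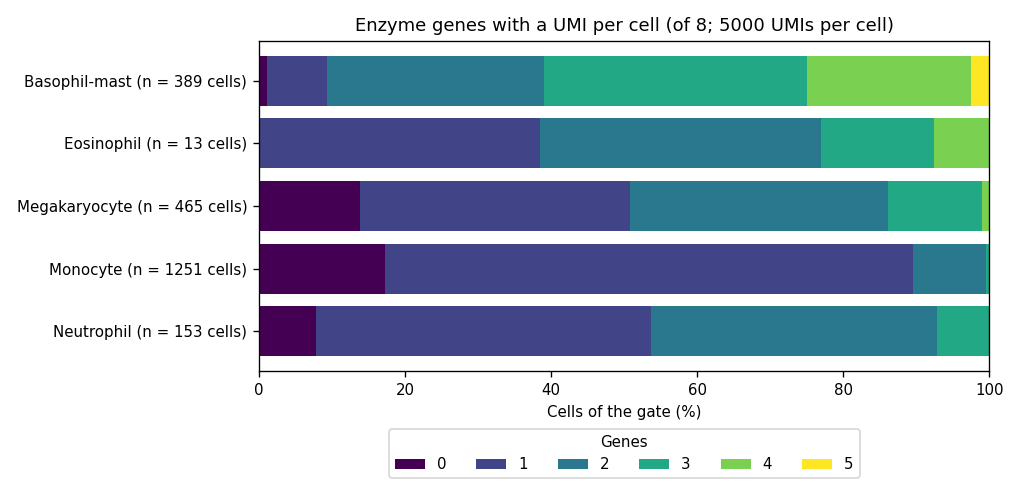
Percent of the cells of each gate in which 0 to 5 of the 8 genes had a UMI, each cell thinned to 5000 UMIs. The basophil-mast bar reaches furthest, with 60.9% of its cells having UMIs of 3 or more of the genes against 23.1% in the eosinophil, 14.0% in the megakaryocyte, 7.19% in the neutrophil and 0.400% in the monocyte gate.

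Counted per cell, 60.9% of basophil-mast cells (55.9 to 65.8) had UMIs of at least 3 of the 8 genes, and the median cell had 3. It was 23.1% (5.04 to 53.8) in the eosinophil gate, 7.19% (3.64 to 12.5) in the neutrophil gate, 13.8% (11.1 to 16.8) in the stem gate and 0.0791% in the erythroid gate. The share was 65 of 465 cells (14.0%) in the megakaryocyte gate and 0.400% (0.130 to 0.930) in the monocyte gate, where 72.3% of the cells had exactly 1 of the genes. Both parts of the 5-lipoxygenase reaction were often found in the same basophil-mast cell, since Alox5ap was detected in 224 of the 238 cells with Alox5 (94.1%) and in 86.1% of the cells without it. Alox15 was detected in 29.0% of the cells with Alox5 and 11.3% of those without. In the megakaryocyte gate Tbxas1 was detected in 39.1% of the 184 cells with Ptgs1 and in 33.8% of the cells without, so Tbxas1 was little more frequent in cells with Ptgs1 than in cells without it. Both genes had a UMI in 72 cells of this gate.

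**Figure D4:**
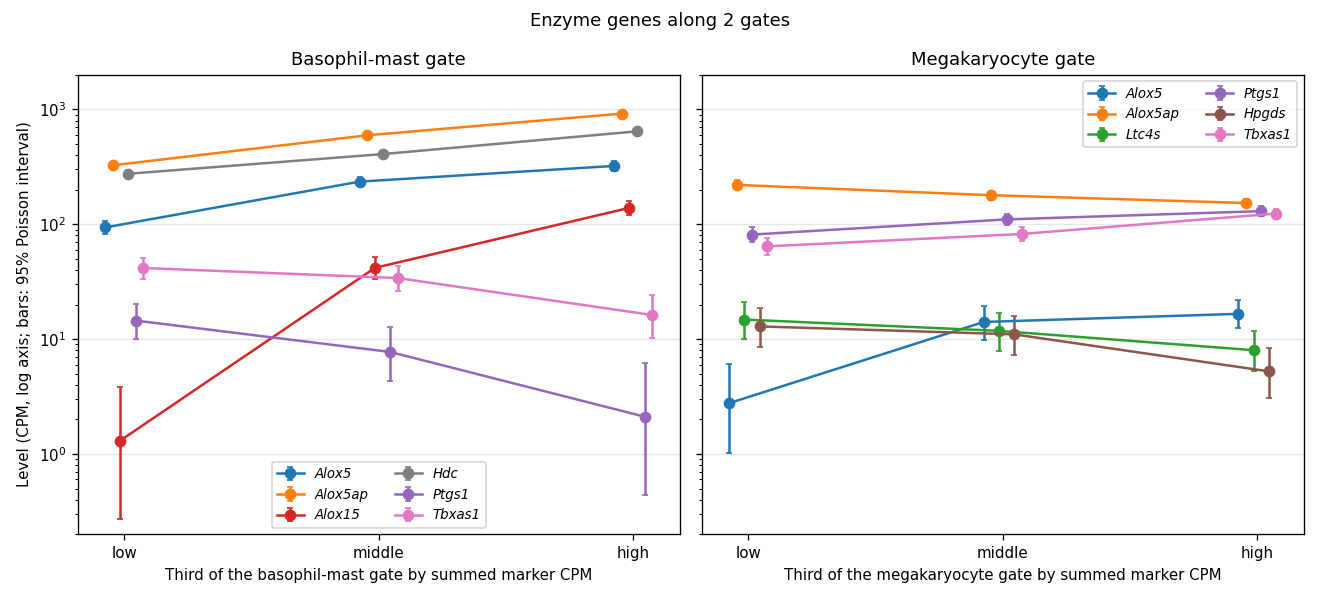
Level of 6 of the genes (CPM, log axis, bars are exact 95% Poisson intervals) in the low, middle and high part of the basophil-mast gate (left) and the megakaryocyte gate (right), cut in 3 parts of equal cell number by the summed CPM of the markers of the gate. In the basophil-mast gate Alox15 was at 1.31, 41.7 and 139 CPM from low to high while Ptgs1 and Tbxas1 moved the other way, the latter not with 2 markers for a gate.

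The cells of each gate formed a range, so each was cut in 3 parts of equal cell number by the summed CPM of its own markers. These parts are stretches of a range and not cell types, and Kit, the receptor used in the sort, went down along most of them. In the basophil-mast gate Kit was at 124, 57.2 and 17.6 CPM in the low, middle and high parts. Alox15 was at 1.31, 41.7 and 139 CPM in these parts, a high over low ratio of 106 (35.6 to 517), from 3 UMIs in the low part. Alox5 went from 93.8 to 235 and 322 CPM, a ratio of 3.44 (2.91 to 4.06). The ratio was 2.82 (2.57 to 3.09) for Alox5ap and 2.35 (2.12 to 2.60) for Hdc. Alox5, Alox5ap and Hdc were thus already present in the basophil-mast cells with the lowest marker sums, whereas Alox15 was nearly absent from them.

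Of the prostanoid genes, Ptgs1 and Tbxas1 went the opposite way along the basophil-mast gate. The ratio of Hpgds, 0.247 (0.0271 to 1.09), was not resolved from 1. Ptgs1 was at 14.5, 7.73 and 2.11 CPM in the low, middle and high parts, a ratio of 0.146 (0.0287 to 0.466), and Tbxas1 was at 41.6, 34.0 and 16.2 CPM, a ratio of 0.389 (0.236 to 0.619). With 2 markers in place of 3 for a gate the Tbxas1 ratio turned to 1.37, so its direction depended on the gate. Marker sums take part of the total from which CPM is computed: the high part began at a marker sum of 55307 CPM and ended at 124517 CPM.

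In the megakaryocyte gate, Kit was at 176, 133 and 72.1 CPM along the 3 parts. Ptgs1 was at 81.3, 110.2 and 130.0 CPM, a ratio of 1.60 (1.34 to 1.92), and Tbxas1 was at 64.2, 82.3 and 124 CPM, a ratio of 1.92 (1.58 to 2.35). Alox5 was at 2.77 CPM in the low part and 16.6 CPM in the high part, a ratio of 6.00 (2.58 to 17.1). Hpgds and Ltc4s were lower in the high part, with ratios of 0.405 (0.208 to 0.765) and 0.541 (0.310 to 0.938). The 4 genes called higher in this gate thus split, with both genes of thromboxane synthesis higher where the markers were higher and the 2 synthases of prostaglandin D2 and leukotriene C4 lower there.

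In the monocyte gate Hdc was at 22.0, 8.48 and 3.02 CPM along the parts, a ratio of 0.137 (0.0858 to 0.209), next to Kit at 55.9, 32.0 and 19.2 CPM, while Alox5ap went from 282 to 409 CPM, a ratio of 1.45 (1.38 to 1.53). In the neutrophil gate Hdc differed little between the ends, at a ratio of 1.16 (0.869 to 1.55), and Ptgs1 was at 29.2, 46.4 and 56.9 CPM, a ratio of 1.95 (1.23 to 3.12). The 13 eosinophil cells were too few to order these genes.

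The stem gate, 594 cells with markers of blood stem cells such as Hlf and Procr, was the gate outside the 5 with the highest levels of the prostanoid genes. Tbxas1 stood there at 109 CPM (101 to 118), 1.16-fold the megakaryocyte level (1.04 to 1.29), and Ptgs1 at 75.2 CPM (68.2 to 82.7), 0.681 of it (0.605 to 0.765). Hpgds was at 28.6 CPM (24.4 to 33.4) in the stem gate, 3.12-fold above the megakaryocyte gate (2.35 to 4.17) and the highest level among the gates. The dendritic gate had Tbxas1 at 44.9 CPM (30.5 to 63.8) and Ptgs1 at 5.80 CPM (1.58 to 14.8). In the stem gate Alox5 (1.59 CPM), Alox15 (1 UMI) and Hdc (2.47 CPM) were low. Ltc4s was at 6.00 CPM (4.16 to 8.39) there, against 11.1 CPM in the megakaryocyte and 3.01 CPM in the basophil-mast gate. As 53 cells passed both the stem and the megakaryocyte list and were left out of both gates, the edge between these gates was set by the markers, and the megakaryocyte gate held stem markers at 263 CPM in sum.

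Beyond the 8 genes, 43 other genes of these pathways were listed and 27 of them had 50 or more UMIs in the 5 gates. The basophil-mast gate had 7 of the 27 called higher and 7 lower, where the shares over all genes were 7.45% and 9.86%. The eosinophil gate had 4 higher and 1 lower (5.10% and 3.65% of all genes) and the megakaryocyte gate 11 higher and 8 lower (16.6% and 10.1%). The monocyte gate had 2 higher and 13 lower (6.17% and 14.6%), and the neutrophil gate 4 higher and 12 lower (2.36% and 25.1%).

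**Figure D5:**
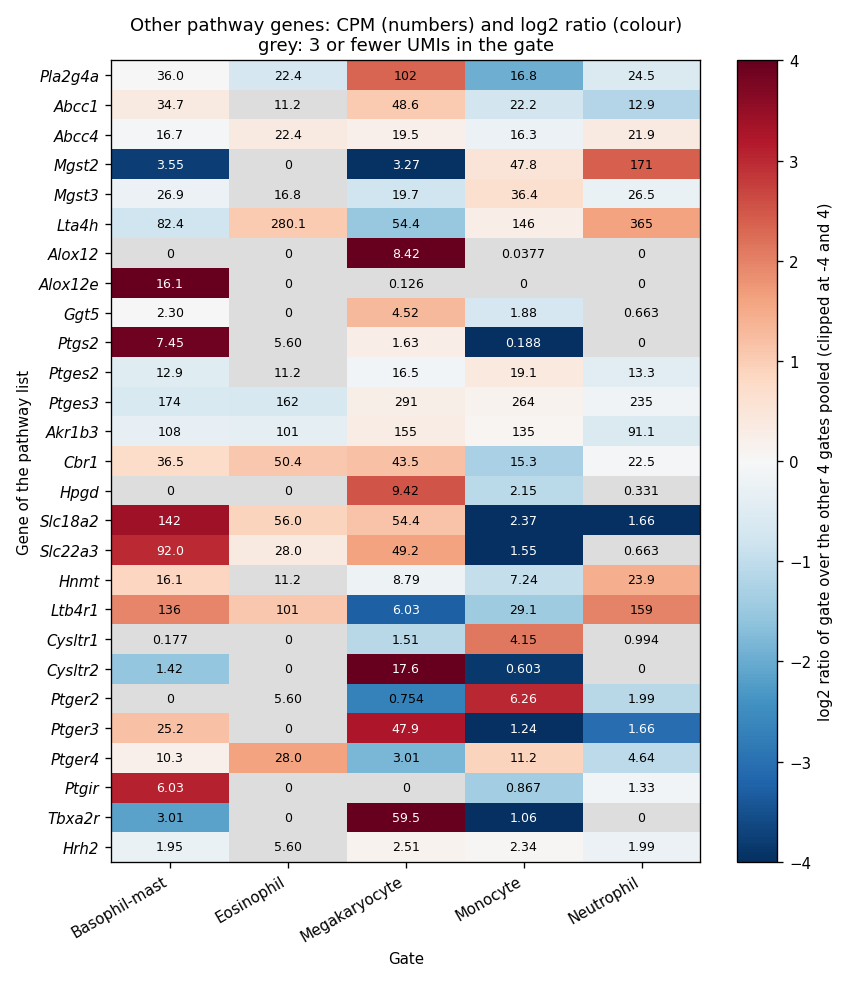
The 27 other pathway genes with 50 or more UMIs in the 5 gates. Numbers are levels in CPM and colours are the log2 ratio of a gate to the other 4 pooled, clipped at the ends of the colour scale, with grey for 3 or fewer UMIs in the gate. The genes around thromboxane, Pla2g4a and Tbxa2r, are red in the megakaryocyte column, and Lta4h, Mgst2 and Ltb4r1 are red in the neutrophil column.

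In the megakaryocyte gate the genes called higher included steps before and after the enzymes. Pla2g4a, the cytosolic phospholipase A2 that frees arachidonic acid, was at 102 CPM, 4.98-fold the other 4 pooled (4.50 to 5.51). Tbxa2r, the thromboxane receptor, was at 59.5 CPM, 46.8-fold (34.4 to 65.0), and 474 of its 519 UMIs in the 5 gates lay there. Pla2g4a, Ptgs1, Tbxas1 and Tbxa2r, that is release, both synthesis steps and the receptor, were thus all highest in this gate among the 5. Alox12, the platelet 12-lipoxygenase, had 67 of its 68 UMIs there, and Cysltr2, a receptor for cysteinyl leukotrienes, was at 17.6 CPM, 25.9-fold (16.7 to 41.8). Ptger3, a prostaglandin E2 receptor, was at 47.9 CPM, 9.40-fold (7.86 to 11.3), and Hpgd, which inactivates prostaglandins, at 9.42 CPM, 5.74-fold (4.02 to 8.24).

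In the basophil-mast gate Hdc was accompanied by the transporters of its product. Slc18a2, the vesicular transporter that loads histamine into granules, was at 142 CPM, 10.5-fold the other 4 pooled (9.35 to 11.7), and Slc22a3, a membrane transporter that carries histamine, at 92.0 CPM, 7.88-fold (6.93 to 8.97). Both were also called higher in the megakaryocyte gate, at 54.4 CPM, 2.19-fold (1.95 to 2.46), and 49.2 CPM, 3.07-fold (2.69 to 3.50), although Hdc was at 1.13 CPM there, and Slc18a2 also carries serotonin and other amines. Alox12e, a lipoxygenase known from skin, had 91 of its 92 UMIs in the basophil-mast gate, as Alox15 had 281 of 285. Ptgs2, the inducible cyclooxygenase, was at 7.45 CPM, 14.8-fold (8.40 to 26.9, 42 UMIs), in the gate where Ptgs1 was called lower.

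Of the genes that act after 5-lipoxygenase, Lta4h, Mgst2 and Ltb4r1 were called higher in the neutrophil gate, where Alox5 was low. Ltc4s was called lower there (0.331 CPM, 1 UMI). In this gate the other leukotriene and lipoxygenase enzymes had 1 of 4 called higher and 2 lower. The receptors had 1 of 9 called higher and 6 lower (2.36% and 25.1% of all genes). Lta4h, which makes leukotriene B4, was at 365 CPM in the neutrophil gate, 3.06-fold the other 4 pooled (2.86 to 3.27), and Mgst2, a glutathione transferase that can make leukotriene C4, was at 171 CPM, 5.23-fold (4.71 to 5.80). Ltb4r1, the leukotriene B4 receptor, was at 159 CPM in the neutrophil gate, 3.98-fold (3.59 to 4.41), and at 136 CPM in the basophil-mast gate, 3.90-fold (3.56 to 4.27). The neutrophil gate therefore had Alox5ap, Lta4h and Ltb4r1 at its 1.66 CPM of Alox5, and the basophil-mast gate, with Alox5, had Mgst2 at only 3.55 CPM and Ltc4s at 3.01 CPM. In the monocyte gate the genes called higher were 2 receptors, Cysltr1 at 4.15 CPM, 4.35-fold (2.56 to 7.88), and Ptger2 at 6.26 CPM, 8.09-fold (4.60 to 15.5).

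For each of the 8 genes the most alike genes were ranked by Pearson's r of log2(CPM + 10) over 10 groups, the 9 gates with cells and the cells in no single gate, among 10111 genes with 500 or more UMIs. These groups come from 1 library and the values are descriptions. For Alox15 the highest was Ccr1, a chemokine receptor (r = 0.977), which was at 101 CPM in the basophil-mast gate and at most 5.60 CPM in the other 4. Alox5 was most like St8sia6, a sialyltransferase (0.973), and Hdc most like Calr, the chaperone calreticulin (0.956), Ptgs1 most like Ica1 (0.954) and Ltc4s most like Rsrc1 (0.929). Tbxas1 was most like Fnbp1l (0.987) and Hpgds most like Maged1 (0.985), both of them highest in the stem gate. Alox5ap was most like Ube2q1 (0.939), a ubiquitin-conjugating enzyme.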

How the data were processed

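The data were 1 library of lineage-negative, Kit-positive marrow cells from control mice. The authors made the deposited UMI counts from a 10x Chromium 3' library with Cell Ranger 6.0.2 (submitters' processing notes) and a transcriptome of the mm10 build. The values are unnormalized whole numbers that precede the authors' cell filter. Counting at the 3' end means that levels of different genes were not compared, and splice forms cannot be told apart. The labels' extraction text describes a bulk kit, which the form of the counts does not match.

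The study's filter was applied (between 1000 and 50000 UMIs and between 1000 and 6500 genes per cell, with a mitochondrial share under 7%), and 99 cells under 5000 UMIs were then left out. The 10 marker lists, of which that for T and NK cells gave no cells, the 8 genes and the 43 pathway genes were chosen with earlier results of these data known. The genes named are these, the markers, and the 3 most alike genes of each of the 8, of which the first is printed. Levels were summed UMIs per 1000000 with exact Poisson intervals, folds had exact conditional binomial intervals and shares exact Clopper-Pearson intervals (95%, scipy 1.17.1). No test was possible with 1 library. Counts of 0 are given with the level equal to 3 UMIs, and a call needed over 3 UMIs in the higher gate, or a fold past 2 with a lower gate raised to 3 UMIs. This condition was set after the counts had been seen.

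Doublet calls (Scrublet in scanpy 1.11.5, expected rate 6%, 265 cells or 3.47%) were kept, and removed in an alternative. The calls were 4.88% of basophil-mast, 2.15% of megakaryocyte and 20.7% of the cells passing several lists. Coordinates are GENCODE M21 on GRCm38, which may differ from the gene models behind the counts. Tbxas1 overlaps Gm23010 on the same strand, and Alox5ap, Ltc4s, Ptgs1, Hpgds and Tbxas1 overlap genes on the opposite strand. The code for the intervals and gates was run on counts simulated from these gates. The simulated counts held no spread between cells beyond counting, so this checks the code and not the gates themselves. The alternatives were other cell filters, doublets removed, 2 or 4 markers, cells of several gates assigned, gating on all UMIs, another random seed, another denominator, equal weights for the other gates, lists without their most detected marker, shares at 10000 UMIs or unthinned, genes with 10 or more UMIs and, added after seeing the data, cells over 30000 UMIs left out.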

Additional observations from a re-analysis of the deposited data

How the results depend on the processing

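Over 12 alternatives, the 24 folds called past 2 kept that side in 284 of 288 combinations. The exceptions were Alox5ap in the megakaryocyte gate (0.470, to 0.508 with 2 markers and 0.512 with gating on all UMIs), and, with gating on all UMIs, Hpgds in the monocyte gate (0.301 to 0.501) and Tbxas1 in the neutrophil gate (0.408 to 0.517). The basophil-mast fold ranged from 56.9 to 158 for Alox5, 452 to 2608 for Alox15 and 3.32 to 35.7 for Hdc. The Hdc fold in the neutrophil gate, not called, ranged from 0.482 to 1.82 and so changed direction. That gate held 153 cells in the main run, 28 with 4 markers and 395 with 2 markers, so its levels depend on how it is drawn. Tbxas1 along the basophil-mast gate reversed with 2 markers, to a high over low ratio of 1.37. Of the other such ratios in the basophil-mast and megakaryocyte gates, 25 left the interval of the main run and 138 stayed in it. Levels left it in 87 combinations and stayed in 353, and all folds in 84 and 396. Shares unthinned or at 10000 UMIs left it in 52 and stayed in 28.

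Of 240 counts of called genes, 217 were within 1.5 times the main count. Most that moved were of the 13-cell eosinophil gate. Its enzyme genes called higher were 2 with gating on all UMIs, and those called lower were 2 with no cell filter, the stricter filter, cells of several gates assigned and equal weights, and 1 with 4 markers and without the most detected marker. Its other pathway genes called higher were 2 with no filter, the stricter filter and 2 markers, and 1 with equal weights, and those called lower were 2 with no filter, cells of several gates assigned and equal weights, and 0 with 2 markers and without the most detected marker. With 4 markers, and without the most detected marker, the other pathway genes called higher were 6 and 7 in the megakaryocyte gate and 4 and 4 in the monocyte gate, and those called lower in the neutrophil gate were 5 and 6. With gating on all UMIs 1 enzyme gene was called higher in the neutrophil gate. The causes of these changes were not tested. No paired analysis was possible because there is 1 library, and no replicate could be left out.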

Other observations

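The 1172 barcodes that the cell filter removed held the enzyme genes at lower levels than the cells kept for 7 of the 8, at ratios from 0.246 for Alox15 (0.105 to 0.490) to 0.670 for Ptgs1 (0.581 to 0.769). For Hpgds the ratio was 1.21 (0.957 to 1.51), which was not resolved from 1. These ratios were not computed for other genes, so the count does not set the 8 genes apart from the rest.

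The cells in no gate held 59.8% of the Ltc4s UMIs of the library, 45.5% of those of Alox5ap and 44.4% of those of Hdc, but 6.18% of those of Alox5 and 0% of those of Alox15. Hdc was at 47.3 CPM (45.5 to 49.1) in these cells, between its neutrophil and monocyte levels, and was detected in 14.9% of them (13.7 to 16.2) at 5000 UMIs per cell. No further name was given to these cells.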
